A study of Drosophila melanogaster with 4 samples.

Results

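The regions described here are the HP1b clusters on chromosome 4 of Drosophila melanogaster, that is, the stretches that the authors called as enriched for HP1b by chromatin immunoprecipitation with sequencing (ChIP-seq). They are all rows on the sequence named 4 in the 3 deposited cluster lists, other than depletion rows, of which that sequence had 0. This gave 100 of 5191 clusters in replicate 1, 108 of 6337 in replicate 2 and 150 of 8426 in a list of the whole series, called the combined set here. The ChIP chromatin came from third-instar larvae of the wild-type strain Oregon-R (Oregon-R-modENCODE), with the antibody HP1b (Henikoff). The 2 Input libraries came from the same strain and stage and are not analysed here. Larval tissues were homogenised together, so a cluster is an average over cell types. The labels do not tie the 2 ChIP libraries to different collections of larvae, and what separates them may be technical only. The lists hold clusters and no reads, so sequencing depth is unknown. All positions below are on chromosome 4 of FlyBase release 5, whose sequence is 1351857 bp long.

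HP1b is 1 of the heterochromatin protein 1 family, small proteins with a chromodomain, which in the founding member HP1a binds methylated histone H3, and a chromoshadow domain through which they pair. HP1a marks the heterochromatin around centromeres, while HP1b is known from both heterochromatin and euchromatin in flies. Chromosome 4, the small dot chromosome, is rich in repeats and carries HP1a along much of its length, yet it holds many active genes. Its low-coordinate end faces the centromere and is called proximal here, and its high-coordinate end is called distal.

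HP1b lay on chromosome 4 as runs of blocks broken by long empty stretches, and both libraries drew a similar outline. Clusters of replicate 1 covered 475795 bp (35.2%) and those of replicate 2 covered 413099 bp (30.6%), a mean of 32.9% ± 3.28 (SD, n = 2). Both libraries covered the same 352072 bp, or 26.0% of the chromosome. A further 9.15% was covered by replicate 1 alone and 4.51% by replicate 2 alone, and 60.3% was covered by neither. The bases common to both were 65.6% of those covered by either, 74.0% of those of replicate 1 and 85.2% of those of replicate 2. Replicate 1 was thus the more extensive list here, and likewise on the scaffolds of heterochromatin, whose names end in Het, where the common bases were 51.9% of those of replicate 1 and 66.5% of those of replicate 2. On the 5 long arms (X and both arms of chromosomes 2 and 3) it was the other way round, where the common bases were 90.3% of those of replicate 1 and 67.2% of those of replicate 2. As a share of the bases covered by either, common bases were 62.6% on the long arms, 63.5% on X and 41.1% on the Het scaffolds. By this measure the libraries overlapped about as much on chromosome 4, at 65.6%, as on the long arms.

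**Figure D1:**
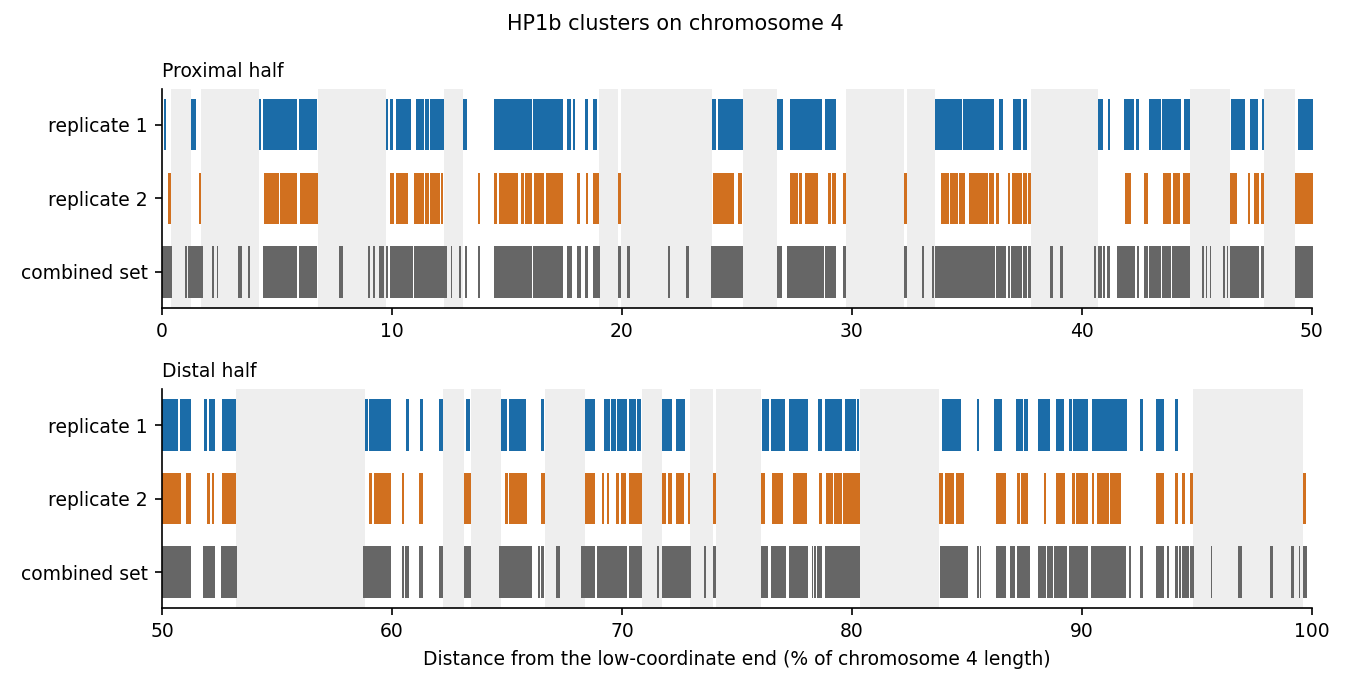
Clusters of each list along chromosome 4, as distance from the low-coordinate end in percent of the chromosome's length, with the proximal part above and the distal part below; coloured bars are clusters and grey bands are the 21 stretches of at least 10 kb with no cluster of either replicate. By definition no block of either replicate lies in a grey band. Of the 22 stretches between the bands, 6 have no base covered by both replicates, and 4 of these hold clusters of replicate 2 alone. The combined set adds narrow clusters within the bands.

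Put together, the clusters of both libraries formed 106 bound regions, each a stretch covered without a break by clusters of one or both. Both libraries contributed to 63 of them, which held 75 of the 100 clusters of replicate 1 and 90 of the 108 of replicate 2. These 63 regions measured 1515 to 23227 bp with a median of 5631 bp, and 77.9% of their bases were common to both libraries. The rest were 25 regions of replicate 1 alone and 18 of replicate 2 alone, with median widths of 1793 bp and 1626.5 bp.

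The widest regions held clusters of both libraries. Of the 106, 15 were at least 10 kb wide, all 15 had clusters of both, and together they held 41.3% of all bound sequence. Merging clusters that touch widens a region, so this count is partly set by how regions were defined. Common bases made up 64.4% to 96.7% of each. The widest ran over 23227 bp from 666214 to 689440, where replicate 1 had 3 clusters and replicate 2 had 2. Next came 467996 to 489155 (21160 bp), 59379 to 79394 (20016 bp), 1222393 to 1240887 (18495 bp), 195160 to 213322 (18163 bp) and 218063 to 235873 (17811 bp). The closest match among the 15 was the region at 80747 to 91373, with 1 cluster in each library and 96.7% of its bases in common.

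Unbroken overlap reached 11 kb. The longest stretches covered by both libraries at every base were 667684 to 679310 (11627 bp), 197930 to 209175 (11246 bp), 474640 to 485803 (11164 bp) and 80772 to 91048 (10277 bp). Then followed 69325 to 79268 (9944 bp), 880082 to 889795 (9714 bp) and 326969 to 336520 (9552 bp). The last 3 of the 10 longest were 1046649 to 1055353 (8705 bp), 59870 to 68415 (8546 bp) and 710885 to 719228 (8344 bp). There were 102 such stretches with a median of 2466 bp, and the 22 of at least 5 kb held 49.1% of the common bases.

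Wide clusters made up a larger share of the chromosome 4 lists than of the full lists. Clusters of at least 10 kb were 12 of 100 in replicate 1, against 0.424% of clusters over all sequences, 7 of 108 in replicate 2, against 0.458%, and 19 of 150 in the combined set, against 0.760%. All 12 of replicate 1 were touched by replicate 2, which covered 64.4% to 99.8% of each. The widest, from 59379 to 79268 (19890 bp), met 2 replicate 2 clusters that covered 93.0% of it. The others in order along the chromosome began at 80747, 195213, 218063, 326969, 377010, 454404, 470731, 667684, 797750, 1044511 and 1222454. Each of the 7 wide clusters of replicate 2, which began at 69325, 80772, 197930, 325862, 474640, 666214 and 879963, met a single replicate 1 cluster that covered 88.8% to 100% of it.

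One library often broke a region that the other called whole. Of the 63 regions with both libraries, 39 paired 1 cluster with 1 cluster, and the other 24 did not (38.1%). In 13 of these 24, a single replicate 1 cluster faced 30 replicate 2 clusters in all, in 4 a single replicate 2 cluster faced several of replicate 1, and in 7 both had several. The region at 218063 to 235873 shows the pattern: replicate 1 had 1 cluster of 17811 bp, and replicate 2 had 4, at 218798 to 222865, 222973 to 224718, 225613 to 231869 and 232043 to 235556. Likewise the replicate 1 cluster at 195213 to 213322 met 3 replicate 2 clusters, of 1876, 11246 and 1590 bp.

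Regions that were not one to one made up 38.1% of those with both libraries on chromosome 4, against 5.11% on the long arms, 5.19% on X alone and 20.8% on the Het scaffolds. Counted by cluster, 20 of 100 replicate 1 clusters were touched by 2 or more of replicate 2 (20.0%, 95% Wilson interval 13.3 to 28.9), against 2.12% over all sequences. In the other direction it was 11 of 108 (10.2%, interval 5.78 to 17.3), against 3.01%. The library that broke regions more often was not the same one everywhere. On chromosome 4, 13 regions had 1 cluster of replicate 1 and several of replicate 2 and 4 had the reverse, while on the long arms there were 45 and 139. All intervals given for shares reflect counting alone, and clusters next to each other are not independent. With 1 pair of libraries, no test over samples of these differences between chromosomes could be made.

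**Figure D2:**
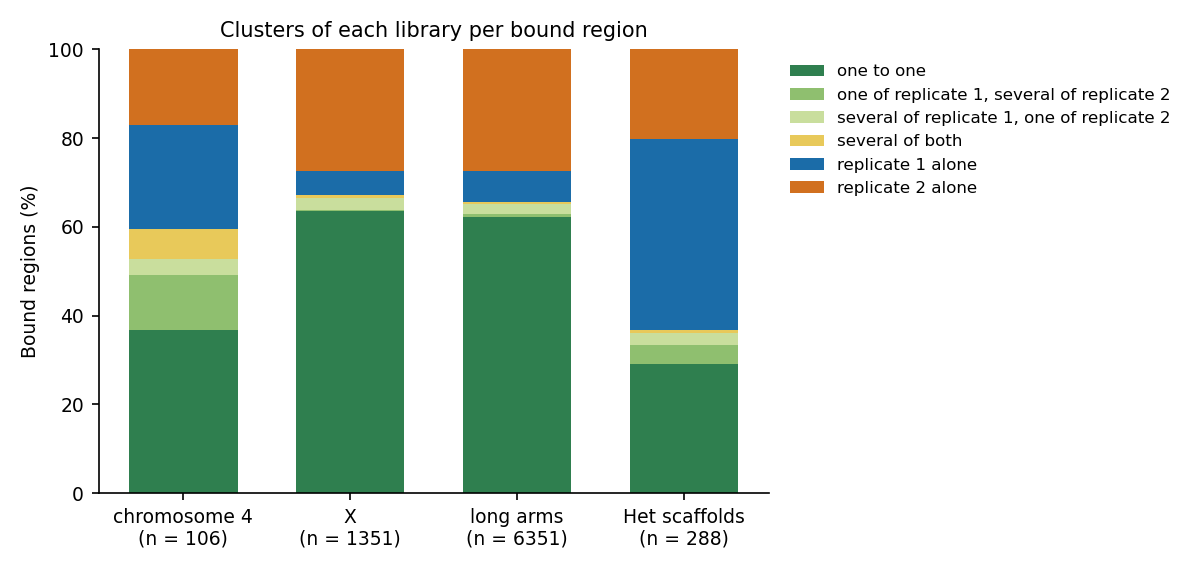
Bound regions by how many clusters each library contributed, in percent of all bound regions of chromosome 4, X, the 5 long arms together and the Het scaffolds, with the number of regions under each bar. Green and yellow parts had both libraries (63 of 106 on chromosome 4), and the lighter green and yellow parts, where at least one library had several clusters, were 24 regions on chromosome 4.

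Most block edges did not coincide closely. Starts were paired with starts and ends with ends, nearest first and each used once, and an edge counted as shared within 200 bp. The libraries shared 23 starts and 23 ends, which is 23.0% of the 200 edges of replicate 1 (95% Wilson interval 17.7 to 29.3) and 21.3% of the 216 edges of replicate 2 (16.4 to 27.2). Over all sequences the shares were 55.5% and 45.5%. They were 58.8% and 46.9% on the long arms, 56.5% and 45.0% on X, and 16.2% and 21.9% on the Het scaffolds. With a tolerance of 1000 bp the shares on chromosome 4 were 53.0% and 49.1%, against 83.0% and 66.2% on the long arms.

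Edges of matched clusters also lay further apart on chromosome 4 than on the long arms. Matching by largest overlap, each cluster used once, gave 70 pairs on chromosome 4, of which 39 were clusters that touched each other and no other, while the rest lay in regions that at least one library broke. Their edges lay a median of 462 bp apart, against 113 bp for the 4195 pairs of the long arms, 131 bp on X and 342 bp on the Het scaffolds. Within 200 bp were 28.6% of these edges (21.7 to 36.5), against 66.0% on the long arms (65.01 to 67.04) and 33.6% on the Het scaffolds (27.7 to 40.2). Over the 39 pairs alone the median was 281 bp, against 108 bp on the long arms (3957 pairs) and 308 bp on the Het scaffolds (84 pairs). Of their edges 39.7% were within 200 bp (29.6 to 50.8), against 67.8% on the long arms (66.8 to 68.8) and 38.1% on the Het scaffolds (31.1 to 45.6). The difference from the long arms was thus smaller without broken regions but present, and the values lay close to those of the Het scaffolds. It was also present in narrow and in wide clusters. Among pairs under 5 kb in both libraries, 35.7% of edges on chromosome 4 were within 200 bp (25.5 to 47.4), against 68.0% on the long arms (66.9 to 69.0). Among pairs with a cluster of 5 kb or more, the shares were 21.4% (13.4 to 32.4) and 42.8% (39.0 to 46.6).

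The direction of the offsets was not uniform on chromosome 4. Over the 70 pairs the median replicate 2 start lay 220.5 bp to the right of its replicate 1 partner and the median difference of the ends, replicate 2 minus replicate 1, was -73 bp. In the 35 pairs under 5 kb both medians were positive, at 263 bp and 65 bp. Starts and ends were summarised apart, so these medians do not tell how single blocks lay against their partners. In the 35 wider pairs the medians were 90 bp and -418 bp, and in the 39 pairs of clusters that touched no other they were 25 bp and -43 bp. On the long arms they were -85 bp and 82 bp over all pairs, so that by both medians replicate 2 edges lay further out. On the Het scaffolds they were 14 bp and 10 bp. The median width ratio, replicate 1 over replicate 2, was 1.13 over the 70 pairs and 1.03 over the 39 on chromosome 4, against 0.921 on the long arms over all pairs.

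**Figure D3:**
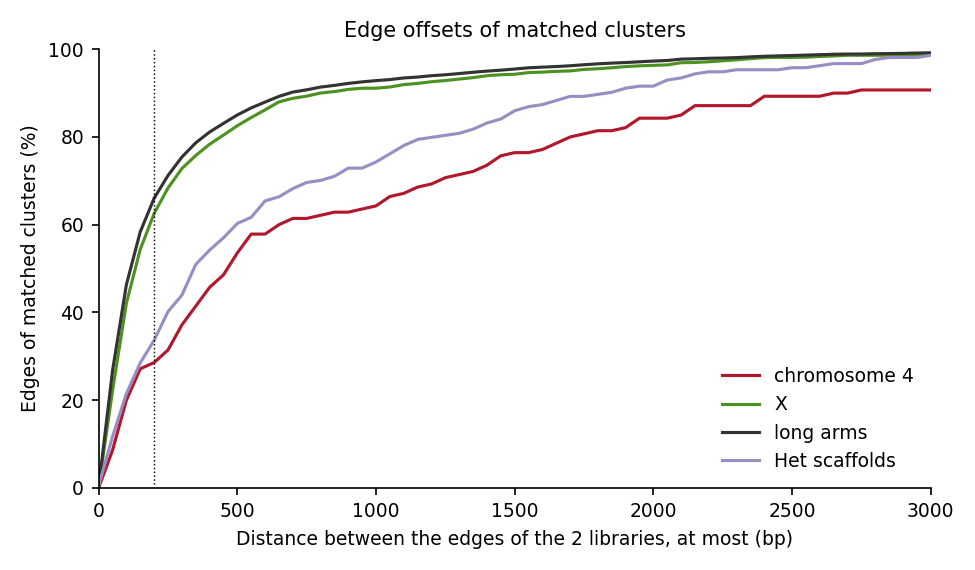
Share of the edges of matched clusters (y axis, percent) whose distance between the 2 libraries is at most the value on the x axis (bp), for chromosome 4, X, the 5 long arms together and the Het scaffolds; the dotted line is the 200 bp tolerance. The chromosome 4 line lies lowest at 200 bp, at 28.6%, beside 33.6% for the Het scaffolds and 66.0% for the long arms.

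Both edges were shared within 200 bp by 7 pairs, or 10.0% of the 70, against 46.4% of pairs on the long arms and 14.0% on the Het scaffolds. Among clusters that touched no other, the shares were 17.9% on chromosome 4, 48.9% on the long arms and 17.9% on the Het scaffolds. The widest of the 7 was the block at 924399 to 930507 in replicate 1 and 924421 to 930368 in replicate 2. It was followed by 213533 to 217375 and 213464 to 217191, by 689561 to 692923 and 689698 to 692971, by 1142974 to 1145661 and 1142972 to 1145790, and by 393519 to 396196 and 393593 to 396153, each given for replicate 1 and then replicate 2. These blocks measured 2561 to 6109 bp. Most had close neighbours: in replicate 1 the preceding clusters ended at 213322, 689440 and 393292, and in replicate 2 the cluster after 1145790 began at 1145861. The start at 1142974 differed by -2 bp between the libraries, replicate 2 minus replicate 1.

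Clusters found in only one library were mostly small and low in score. The 25 of replicate 1 made up 11.3% of its bases on the chromosome, and the 18 of replicate 2 made up 7.48%. In all, 75 of 100 replicate 1 clusters and 90 of 108 replicate 2 clusters were touched by the other library, against 87.8% and 70.7% over all sequences. The median score of the lone clusters was 0.52 in replicate 1, against 0.71 for touched ones, and 0.46 in replicate 2, against 0.62. Lone clusters on the long arms also scored lower, at 0.50 against 0.74 in replicate 1 and 0.46 against 1.10 in replicate 2. The score is the authors' own log2 value per cluster, and what it divides is not stated, so it is compared only within a list. Exceptions by score included the lone clusters of the first 22800 bp, at 0.73 to 0.85 in replicate 1 and 0.89 and 0.94 in replicate 2. An exception by width was the replicate 1 cluster at 580002 to 587152 (7151 bp, score 0.78). Replicate 2 had no cluster there but called its own lone cluster just before it, at 577342 to 579795.

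The 2 tips of the chromosome were places where the libraries did not meet. In the first 22800 bp, replicate 1 had clusters at 863 to 2527, 16985 to 18448 and 18708 to 20172, and replicate 2 had clusters at 3258 to 5325 and 21402 to 22800, with no base in common. The combined set covered 99.6% of the stretch from 1 to 5325 and 96.6% of that from 16985 to 22800. At the distal tip replicate 2 had a cluster at 1346814 to 1348266 with a score of 1.14, and replicate 1 had none there. Which bases of the tips could be mapped is not recorded in the lists.

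Gaps between neighbouring blocks were short for the most part. Replicate 1 had 99 gaps of 4 to 75783 bp with a median of 2209 bp, and replicate 2 had 107 gaps of 70 to 78224 bp with a median of 2366 bp. On the long arms the medians were 8115.5 bp and 6364 bp, on X 6665.5 bp and 4774.5 bp, and on the Het scaffolds 9309.5 bp and 12867 bp. Divided by the long-arm median, the chromosome 4 median gap was 0.272 for replicate 1 and 0.372 for replicate 2, a mean of 0.322 ± 0.0704 (SD, n = 2). Both libraries had shorter gaps on chromosome 4, but with n = 2 the smallest two-sided p that an exact sign test allows is 0.5. The ratio was 0.624 when clusters less than 1000 bp apart were joined and 0.972 among the higher-scoring 50% of each list, which is close to equal gap lengths.

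Very short and very long gaps stood side by side. Gaps under 1 kb were 32 of 99 in replicate 1 (32.3%), against 10.8% of gaps over all sequences, and 31 of 107 in replicate 2 (29.0%), against 13.4%. In the combined set they were 65 of 149 (43.6%), against 16.7%. In the replicates they were 10.4% and 13.1% of gaps on the long arms. At the other end, 18 gaps of replicate 1 and 23 of replicate 2 measured at least 10 kb, which is 18.2% and 21.5% of gaps, against 45.5% and 38.3% on the long arms. These few long gaps held 74.0% and 76.2% of the unbound sequence between blocks on chromosome 4. That was a smaller share than on the long arms (91.0% and 87.3%), on X (88.7% and 84.2%) and on the Het scaffolds (94.3% and 97.3%).

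**Figure D4:**
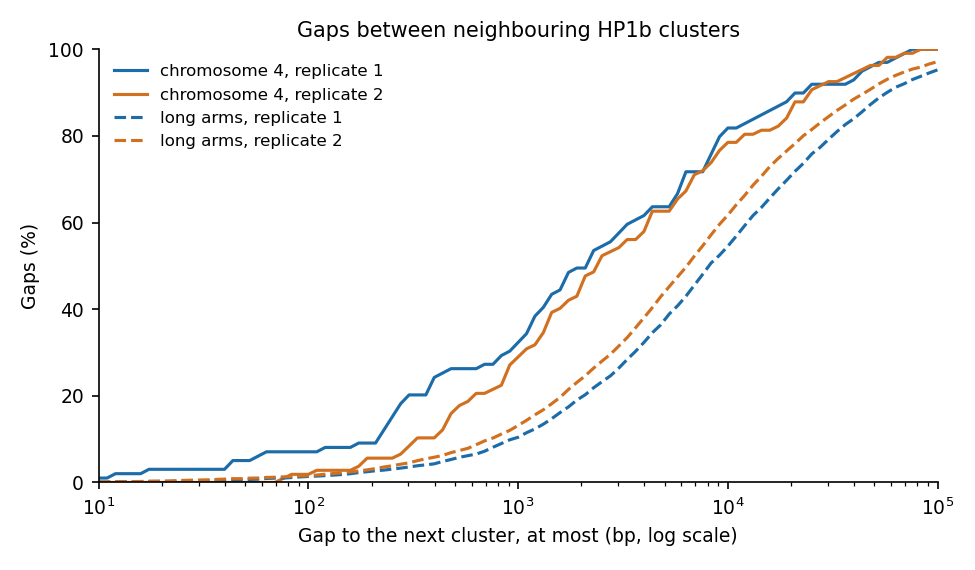
Share of gaps between neighbouring clusters (y axis, percent) that are at most as long as the value on the x axis (bp, log scale), for each replicate on chromosome 4 (solid) and on the 5 long arms together (dashed). Both solid lines lie above both dashed lines at 1 kb, with 32.3% and 29.0% of gaps on chromosome 4 against 10.4% and 13.1% on the long arms.

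Replicate 1 alone left 19 stretches of at least 10 kb without a cluster, and replicate 2 alone left 23. Not all coincided: between 255434 and 323568 replicate 1 had no cluster, while replicate 2 had a cluster at 267963 to 269727. The stretches described next were selected as empty in both libraries, so they do not measure how far the libraries agree. There were 21 stretches of at least 10 kb with no cluster of either, which made up 606057 bp or 44.8% of the chromosome and 74.4% of the sequence that neither covered. Their median length was 23523 bp. The longest ran from 719495 to 795011 (75517 bp), followed by 1282160 to 1346813 (64654 bp) next to the distal tip, 269728 to 323567 (53840 bp) and 1086065 to 1132942 (46878 bp). Then came 91374 to 131393 (40020 bp), 511150 to 550080 (38931 bp), 22801 to 56725 (33925 bp) and 402206 to 436025 (33820 bp). The last 2 of the 10 longest were 1001350 to 1028318 (26969 bp) and 900746 to 924398 (23653 bp). No genome of this release was used here, so how much of their sequence can be mapped is not known.

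Long gaps were about as frequent on chromosome 4 as elsewhere but took less of it. There were 15.5 shared gaps of at least 10 kb per Mb, against 19.6 on the long arms, 18.2 on X and 14.9 on the Het scaffolds. They made up 44.8% of chromosome 4, against 74.0% of the long arms, 68.9% of X and 86.3% of the Het scaffolds. The 22 zones left between them averaged 33900 bp, against 13294 bp on the long arms, 17023 bp on X and 9510 bp on the Het scaffolds. Within zones, clusters covered 63.8% of the sequence in replicate 1 and 55.4% in replicate 2, against 38.0% and 51.0% on the long arms and 47.2% and 36.8% on the Het scaffolds. The share was thus higher in replicate 1 on chromosome 4 and the Het scaffolds, and higher in replicate 2 on the long arms.

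Of the 22 zones, 12 were at least 20 kb long, and in these 12 the covered share ran from 43.5% to 91.6% in replicate 1 and from 31.8% to 84.3% in replicate 2. The densest was 56726 to 91373, with 91.6% and 84.3% covered and 83.0% covered by both. The longest was 1132943 to 1282159 (149217 bp), with 19 clusters in each library but 48.9% and 43.3% covered. The zone from 1028319 to 1086064 had 76.05% and 66.5%, and that from 454404 to 511149 had 77.1% and 70.7%. In the zone from 550081 to 604552 the libraries were far apart, at 60.9% and 35.2%. In 6 zones no base was covered by both, and 4 of these held a cluster of replicate 2 and none of replicate 1.

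With the chromosome divided into 2 equal parts at 675928, the proximal part was slightly more covered than the distal part, but the difference depended on where the division was made. In replicate 1 clusters covered 38.0% of the proximal part and 32.4% of the distal part. In replicate 2 they covered 32.0% of the proximal part and 29.2% of the distal part. The ratio, proximal over distal, was 1.18 and 1.10, a mean of 1.14 ± 0.0564 (SD, n = 2). Both libraries had a ratio above 1, for which the exact sign test has the same limit. With the outer 100 kb at both ends left out the mean ratio was 1.02, and for positions 1 to 450619 against the rest it was 0.994. Over 3 equal parts, from proximal to distal, replicate 1 covered 35.1%, 36.7% and 33.9%, and replicate 2 covered 30.4%, 30.5% and 30.8%.

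The parts differed more in wide clusters than in the number of clusters. Replicate 1 had 9 clusters of at least 10 kb in the proximal part and 3 in the distal part, and replicate 2 had 6 and 1. Of the 10 longest stretches covered by both, 7 had their centre in the proximal part and 3 in the distal part, and the one at 667684 to 679310 crossed the division. Clusters per Mb were 71.0 in replicate 1 and 82.8 in replicate 2 in the proximal part, against 76.9 in both in the distal part. Median widths were 3171 bp and 2693.5 bp in the proximal part, against 2871.5 bp and 2366 bp in the distal part, but in the combined set they were 1941 bp and 2333 bp, the other way round. Among all 15 bound regions of at least 10 kb, 8 had their centre in the proximal part and 7 in the distal part, so with the libraries merged the parts were nearly even. The widest region, 666214 to 689440, crossed the division and counted as distal. The cluster of at least 10 kb that each library had within it counted as proximal.

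Gaps, edges and scores gave no single direction. The median gap of replicate 1 was 1759 bp in the proximal part and 2248.5 bp in the distal part, and that of replicate 2 was 2015 bp in the proximal part and 3319 bp in the distal part. Shared gaps of at least 10 kb took up 46.3% of the proximal part (12 gaps) and 43.3% of the distal part (9 gaps). Shared edges were 21.1% of replicate 1 edges and 18.0% of replicate 2 edges in the proximal part, against 24.8% of both in the distal part. Lone clusters numbered 15 and 11 in the proximal part, against 10 and 7 in the distal part. The median score was 0.69 and 0.55 in the proximal part, against 0.61 and 0.60 in the distal part, so that the difference was 0.08 in replicate 1 and -0.06 in replicate 2 and the libraries did not share a sign.

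Windows of 50 kb show the local profile behind these averages. Over the 27 full windows the covered shares of the libraries followed each other, with a Pearson r of 0.940 and a Spearman rho of 0.944, as a description across windows of 2 libraries. Replicate 1 was the higher in 18 windows and replicate 2 in 9. Both were below 10% in 4 windows and at or above 50% in 5. Sparse and dense windows lay side by side in both parts. In the proximal part, 80.1% and 65.4% at 200001 to 250000 stood next to 5.05% and 10.5% at 250001 to 300000. Likewise 73.0% and 60.2% at 450001 to 500000 stood next to 14.4% and 20.0% at 500001 to 550000. In the distal part, 71.2% and 59.2% at 1200001 to 1250000 stood next to 16.5% and 20.9% at 1250001 to 1300000. The 5 windows from 800001 to 1050000, chosen after their values were seen, were level, at 31.8% to 37.1% in replicate 1 and 26.1% to 38.5% in replicate 2.

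The libraries differed by 10 points or more in 5 windows, in each with more in replicate 1. The largest difference was at 550001 to 600000, with 59.9% in replicate 1 and 30.2% in replicate 2, and the next at 350001 to 400000, with 56.4% and 35.5%. The other 3 windows began at 200001, 450001 and 1200001, and all 3 were among the 5 windows with at least 50% in both libraries.

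**Figure D5:**
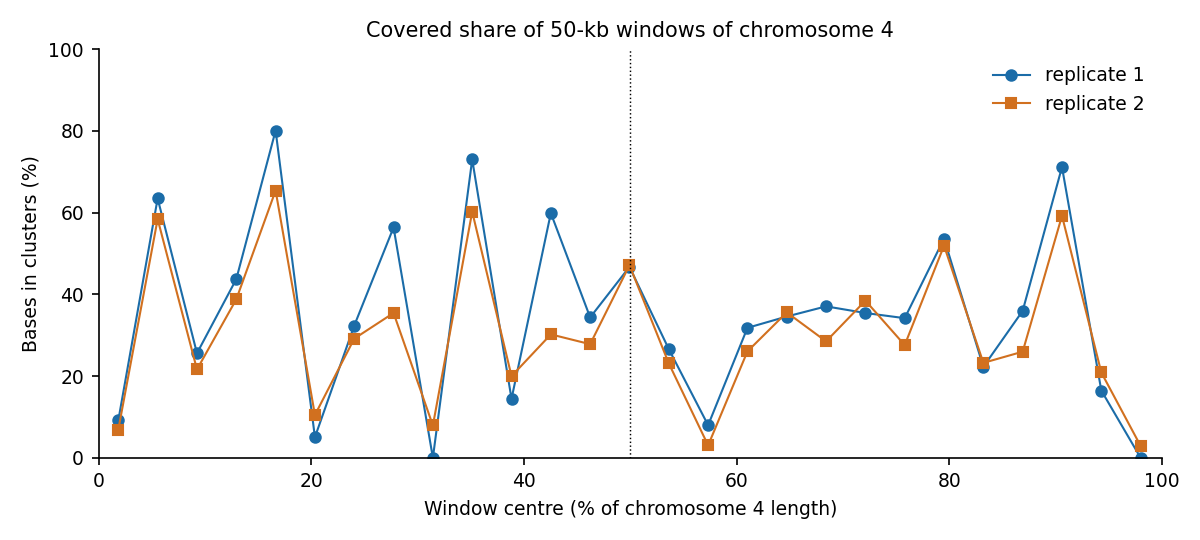
Bases in clusters (y axis, percent) of each of the 27 full 50-kb windows, placed by the window's centre in percent of the length of chromosome 4 from the low-coordinate end, for replicate 1 (circles) and replicate 2 (squares); the dotted line is the midpoint. Both lines rise and fall together, with the highest window at 80.1% and 65.4% and the widest separation at 59.9% and 30.2%.

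The highest-scoring blocks were few and were narrower than the widest ones. In replicate 1 the top score of chromosome 4 was 2.08 at 149542 to 153834 (4293 bp), followed by 1.97 at 978098 to 983449 and 1.71 at 1142974 to 1145661. In replicate 2 it was 2.33 at 978054 to 982919 (4866 bp), followed by 2.16 at 1142972 to 1145790 and 2.07 at 1046649 to 1055353. The blocks that began at 978098 and 1142974 in replicate 1 were thus among the 3 highest in both libraries. The top replicate 1 block ranked 6th on the chromosome in replicate 2, with a score of 1.85, and that at 1046649 to 1055353 ranked 7th in replicate 1, with 1.43. In the full lists these scores were not extreme, with the top block at rank 139 of 5191 in replicate 1 and at rank 296 of 6337 in replicate 2.

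Few chromosome 4 clusters reached the top 10% of scores of their list: 3 of 100 in replicate 1 and 3 of 108 in replicate 2 (2.78%). Wider clusters had higher scores, with a Spearman rho of 0.744 across the clusters of replicate 1 and 0.723 across those of replicate 2. Over the 70 matched pairs the scores of the 2 libraries had a rho of 0.836, and over the 4195 pairs of the long arms 0.847. These are descriptions across clusters, which share their library and are not replicates. Scores of matched blocks on chromosome 4 were therefore ordered about as alike in the 2 libraries as on the long arms, although their edges lay further apart.

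The combined set filled in and joined blocks, and it is not independent of the replicates. It covered 47.8% of the chromosome and 78.8% of the zones between long gaps. It touched 98 of the 100 replicate 1 clusters and all 108 of replicate 2. Single combined clusters held up to 4 clusters of a library, and 18 of them held 2 or more of replicate 1 and 23 held 2 or more of replicate 2. The matching shares over all sequences are not given here, so these counts are not read as particular to chromosome 4. The 59 combined clusters touched by both libraries (39.3%, against 51.3% over all sequences) carried 75.8% of its bases and had a median width of 6759 bp.

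A further 53 combined clusters were touched by neither library (35.3%, 95% Wilson interval 28.1 to 43.3, against 21.6% over all sequences). They were small, with a median of 1195 bp, 11.4% of the combined bases and a median score of 0.33, against 0.68 for those touched by both. Of these 53, 31 were narrower than 1301 bp, the narrowest cluster that either library held anywhere. The highest score among them was 1.26 at 613528 to 614528, followed by 1.08 at 1292418 to 1293472. The long gaps held 36 of the 53, spread over 13 of the 21 gaps. They also made up 74.4% of the sequence that neither library covered, so the count is not read as a gathering there. The gap from 647980 to 666213 (18234 bp) was the only one of the 21 that no combined cluster touched, and in that from 1086065 to 1132942 combined clusters reached 6 bp of 46878 bp.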

How the data were processed

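Bowtie 0.12.7 is the aligner named, per the submitters' processing notes. Which caller made the clusters, and at what threshold, is not given in the sources used here. Clusters are on FlyBase release 5, per the file headers. Each deposited row is a cluster with start, end and a log2 score given by the authors. That its base is 2 was inferred from score differences. Each ChIP library has its own list, and the combined list is named as a replicate set.

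The members, split and tolerances were chosen with earlier results of these data known. Rows marked as depletion were left out (1 of replicate 2, 2 of the combined set and none on chromosome 4). Touching meant 1 bp. Values are mean ± SD over 2 libraries. With files for 1 group, no groups were compared. The rule for naming regions took clusters of at least 10 kb, the 10 longest common stretches and gaps, the 3 highest scores per library and the 5 widest blocks with both edges shared; other regions were named after their values were seen. Alternatives were other edge tolerances and gap minimums, joined clusters, the higher-scoring 50% of each list, other divisions of the chromosome, the combined set and one library left out. The code for edge matching was checked on simulated data, where 25 of 25 and 50 of 50 planted starts out of 100 were recovered. Planted starts were moved by less than the tolerance and the others were placed far from every replicate 1 start. Full recovery was thus fixed by the setting, and the check does not tell how often neighbouring edges match by chance. The only annotation was a release 6 gene table, so no gene or sequence was assigned. Python 3.11.15, scipy 1.17.1, numpy 2.4.6 and matplotlib 3.10.9 were used.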

Additional observations from a re-analysis of the deposited data

How the results depend on the processing

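Values were taken to stay when within 1 SD between the libraries, within the 95% Wilson interval of a share, or within 1.5 times a count. For common bases that interval was taken over single bases, which are not independent. It was therefore very narrow, and even a small change of that share counted as moved. Of 45 alternatives other than leaving out a library, 9 stayed, 28 moved and 8 reversed. For means over 2 libraries, either library alone always lies within 1 SD, so leaving one out can show only a reversal. In the combined set the covered share was 47.8% and in the higher-scoring 50% of each list 20.7%; with one library left out it ranged from 30.6% to 35.2%. The gap ratio to the long arms was 0.972 in the higher-scoring 50%, 0.624 with clusters under 1000 bp apart joined, 0.433 by mean gap and 0.413 against X alone, and ranged from 0.272 to 0.372 with one library left out. The proximal over distal covered share was 1.20 in the higher-scoring 50%, 1.02 without the outer 100 kb, 1 by clusters per Mb and 0.994 for positions 1 to 450619 against the rest, and ranged from 1.10 to 1.18. The proximal minus distal median score, 0.01 over both libraries, was -0.083 in the combined set, -0.13 in the higher-scoring 50%, -0.0097 for positions 1 to 450619 and -0.0095 without the outer 100 kb, and with one library left out was -0.057 (replicate 1 out) or 0.082 (replicate 2 out), so its sign rests on replicate 1. The width ratio, 1.12 over both libraries and 1.10 to 1.14 with one left out, was 0.832 in the combined set, 0.836 in the higher-scoring 50% and 0.754 with clusters joined. Shared edges, as a percentage of replicate 1 and of replicate 2 edges, were 16.0 and 14.8 at 100 bp, 43.5 and 40.3 at 500 bp, 53.0 and 49.1 at 1000 bp, 17.6 and 15.6 with clusters joined, and 25 and 31.1 in the higher-scoring 50%. Chosen after seeing the data, they were 28.6 over matched clusters, 35.7 over those under 5 kb and 39.7 over those that touched no other cluster. Common bases were 67.4% with clusters joined, 52.6% in the higher-scoring 50% and, chosen after seeing the data, 77.9% without lone clusters. Shared gaps numbered 37 at 5 kb and 12 at 20 kb, and from 19 to 23 in one library alone. The cause of these changes was not tested, except that tolerances and minimum lengths act by construction. No paired analysis was possible because cluster lists of only the ChIP group were analysed, and no Input list could be set beside them. Depth is unknown, so its limit on calls cannot be stated.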
